A study of Homo sapiens with 4 samples.

Results

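Peaks of ONECUT2 that start inside 6 gene clusters of chromosome 19 were examined in 22Rv1, an established line of human prostate carcinoma grown out of a castration-resistant xenograft. The clusters hold KRAB zinc-finger genes and were taken as fixed intervals of the genome build hg19. In order along the chromosome, cluster A ran from 11.7 to 12.8 Mb, B from 19.8 to 24.4 Mb, C from 36.7 to 38.4 Mb, D from 44.2 to 45 Mb, E from 52.3 to 54.0 Mb and F from 56.1 to 59.1 Mb. No measured value entered the choice of intervals. Chromatin immunoprecipitation followed by sequencing (ChIP-seq) had been done with 2 libraries made with an anti-ONECUT2 antibody raised in rabbit and 2 libraries of input DNA, all from 22Rv1 cells for which the labels name no treatment. Each ChIP library has its own peak list, and another list, called the IDR list here, holds the optimal set by irreproducible discovery rate, a measure of how well replicates agree on a ranked site. The clusters held 311 of 14431 peaks in replicate 1, 206 of 11990 peaks in replicate 2 and 64 of 4297 IDR regions, 581 of 30718 entries in all. Nothing in the labels ties the 2 ChIP libraries to separate cultures, so the spread between them may be technical.

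ONECUT2 binds DNA through a CUT domain and a homeodomain and is best known from liver, pancreas and neuronal development. KRAB zinc-finger proteins form a large family of DNA-binding repressors, and many arose by tandem duplication on chromosome 19. Their KRAB domain recruits TRIM28 (KAP1), a corepressor through which transposable elements are silenced by histone H3 lysine 9 methylation. In a RefSeq gene table of the later build GRCh38, 265 of 569 protein-coding genes with a ZNF, ZFP, ZSCAN, ZIM, ZIK or ZKSCAN symbol (46.6%) lie on chromosome 19. That table was used for names only. Genes were not assigned to peaks and sequences under peaks were not read, because an hg19 genome and annotation were not used here.

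The first question was whether the clusters differ from the rest of chromosome 19 in how densely peaks were called. In the replicate lists they did. Replicate 1 had 24.1 peaks per Mb in the clusters (exact Poisson 95% interval 21.5 to 26.9) and 10.5 per Mb in the rest of the chromosome (interval 9.58 to 11.5). The ratio of densities was 2.30 (interval 1.99 to 2.66, adjusted p = 1.78e-27 by an exact two-sided test of 2 Poisson rates). Replicate 2 had 16 peaks per Mb in the clusters (interval 13.9 to 18.3) and 6.51 in the rest (interval 5.80 to 7.29), a ratio of 2.45 (interval 2.04 to 2.94, adjusted exact p = 3.22e-21). The clusters thus held 39.1% and 40.6% of the peaks of chromosome 19 in the 2 replicates. In the IDR list the difference was small. It had 4.96 regions per Mb in the clusters (interval 3.82 to 6.34) and 3.66 in the rest (interval 3.13 to 4.25), a ratio of 1.36 (interval 1.00 to 1.82, adjusted exact p = 0.0392). This last call was lost without cluster F (ratio 1.05, adjusted exact p = 0.784), without cluster A, C or D, and when the stretch between clusters B and C, which holds the centromere, was left out of the rest (ratio 1.08, adjusted exact p = 0.598). With that stretch left out, the ratios of the replicate lists fell to 1.87 in replicate 1 and 1.94 in replicate 2 (adjusted exact p = 6.63e-16 and 3.32e-12). The intervals and tests treat each peak as 1 observation and cover counting error alone, although neighbouring peaks may share their origin.

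The clusters differed among themselves, and B stood apart from the other 5. In replicate 1 there were 39.1 peaks per Mb in A, 10.7 in B, 27.6 in C, 40 in D, 24.1 in E and 33 in F. In replicate 2 there were 22.7 in A, 6.74 in B, 19.4 in C, 25 in D, 20 in E and 21 in F. In both replicates every cluster other than B was denser than each of the 6 peak-holding stretches that separate the clusters or precede them, which had between 3.82 and 17 peaks per Mb in replicate 1 and between 1.71 and 11.8 in replicate 2. Clusters A, C, D, E and F each exceeded the rest of the chromosome in both replicate lists, with ratios from 2.30 to 3.81 in replicate 1 and from 2.98 to 3.84 in replicate 2. The adjusted exact p of these 10 comparisons was at most 7.96e-06. Among peaks with fold enrichment of at least 6, which are few, none of the 10 passed the threshold. There the ratios in replicate 1 and replicate 2 were 3.11 and 4.54 in A, 1.01 and 0.735 in C, 3.21 and 3.12 in D, 0.504 and 0.735 in E, and 2.00 and 2.08 in F (adjusted exact p from 0.179 to 1.0).

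Cluster B, the longest and the nearest to the centromere, did not differ detectably from the rest of the chromosome, with a ratio of 1.02 in replicate 1 (0.741 to 1.36) and 1.04 in replicate 2 (0.691 to 1.5), both at an adjusted exact p of 0.880. Set against the other 5 clusters, B had a ratio of 0.337 in replicate 1 (interval 0.243 to 0.459, adjusted exact p = 1.45e-13) and 0.320 in replicate 2 (interval 0.211 to 0.470, adjusted exact p = 6.32e-10). The IDR list showed the same order for B, with 7 regions or 1.52 per Mb, against 6.87 per Mb in the other 5 clusters (ratio 0.222, interval 0.0853 to 0.487, adjusted exact p = 6.33e-05). Cluster F was above the other 5 in all 3 lists, with ratios of 1.54, 1.45 and 2.26 in replicate 1, replicate 2 and the IDR list (adjusted exact p = 0.00265, 0.0371 and 0.00789). In the IDR list, set against the rest of the chromosome, F had a ratio of 2.37 (interval 1.51 to 3.60, adjusted exact p = 0.000359), D of 2.39 (adjusted exact p = 0.0442) and B of 0.416 (interval 0.165 to 0.877, adjusted exact p = 0.0256), while A, C and E did not pass the threshold. F alone held 26 of the 64 IDR regions of the clusters. Clusters A and D were above the other 5 in replicate 1 (ratios 1.72 and 1.73, adjusted exact p = 0.00766 and 0.0162), while in replicate 2 their ratios were 1.48 and 1.63 and did not pass the threshold (adjusted exact p = 0.142 and 0.0854).

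**Figure D1:**
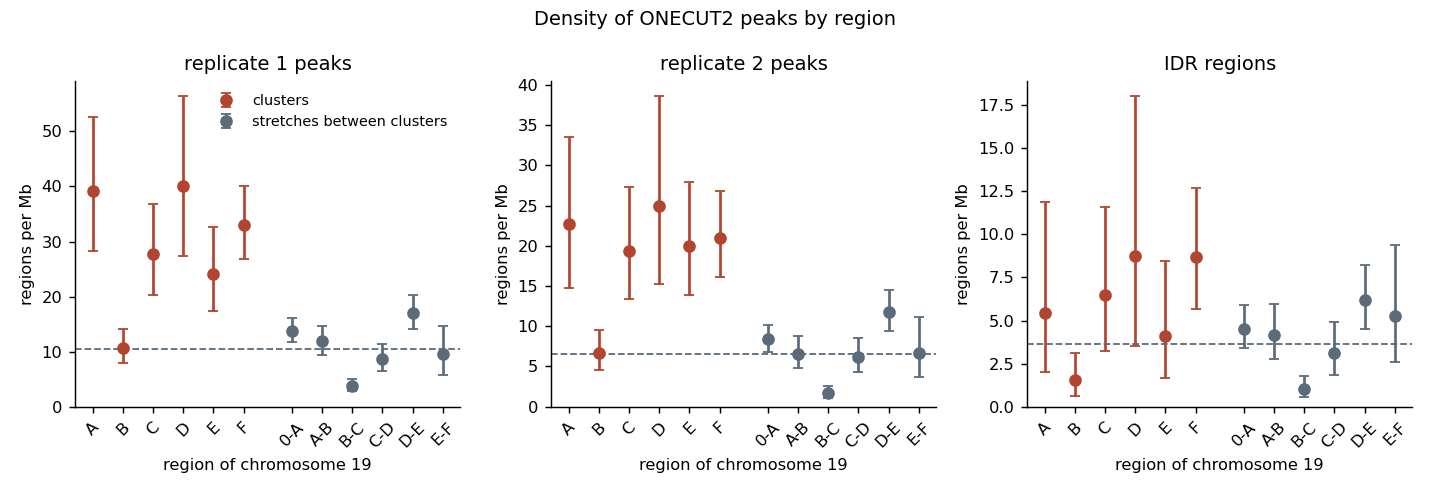
Regions per Mb (y axis) in clusters A to F and in the stretches of chromosome 19 before and between them (0-A is the stretch before A, A-B the stretch from A to B, and so on), for replicate 1, replicate 2 and the IDR list. Points are densities, bars exact Poisson 95% intervals, and the dashed line the density of the rest of chromosome 19; 5 clusters lie above all stretches in the replicate lists, and B lies at the dashed line with 10.7 and 6.74 peaks per Mb.

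Peaks were unevenly spread inside the clusters. In bins of 0.1 Mb, 39 of 129 cluster bins (30.2%) held no replicate 1 peak, against 244 of 462 bins (52.8%) in the rest of the chromosome. For replicate 2 the empty bins were 58 of 129 (45%) in the clusters and 303 of 462 (65.6%) in the rest. The bins of the rest include the stretch that holds the centromere. Much of the empty part lay in cluster B, where 25 of 46 bins had no replicate 1 peak and 32 had no replicate 2 peak. The longest stretch with no entry of any list, 1414 kb or 30.7% of the cluster, ran there from chr19:22019214 to chr19:23432973. In cluster F a stretch of 595 kb was empty, from chr19:57107235 to chr19:57702627. Clusters A, C, D and E had no empty stretch longer than 213 kb.

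Peaks in the clusters often lay close to one another. In replicate 2, 120 of 206 cluster peaks (58.3%) had another summit of the same list within 5 kb, against 119 of 301 (39.5%) in the rest of the chromosome. In replicate 1 the counts were 168 of 311 (54.0%) in the clusters and 213 of 485 (43.9%) in the rest. Over all peaks of each list, 50.7% in replicate 2 and 51.3% in replicate 1 had such a neighbour, so the cluster shares lay a little above the whole lists and the rest of chromosome 19 below them. The distance to the nearest summit had a median of 1.68 kb in the clusters and 15.7 kb in the rest in replicate 2, and of 2.24 kb and 9.47 kb in replicate 1. Runs of 4 or more summits spaced by at most 5 kb held 64 of 311 cluster peaks (20.6%) in replicate 1, against 51 of 485 (10.5%) in the rest, and 27 of 206 (13.1%) in replicate 2, against 32 of 301 (10.6%) in the rest. The largest run of the rest of chromosome 19 had 5 peaks in replicate 1 and 7 in replicate 2. These differences in spacing were not tested, and whole-list values for nearest distances and runs are not given here.

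The longest run of the clusters, chosen after its values were seen, lay in cluster F and was present in both replicates. Replicate 1 had 7 peaks there over 8.76 kb, from chr19:58258079 to chr19:58266836, with fold enrichments from 3.22 to 5.4. Replicate 2 had 6 peaks over 8.52 kb, from chr19:58257912 to chr19:58266430, with fold enrichments from 3.41 to 4.42. Of these, 5 peaks in each list overlapped a peak of the other, and none overlapped an IDR region. The lowest background of the list lay under 5 of the 7 replicate 1 peaks and 5 of the 6 replicate 2 peaks. Fragments per peak ran from 20 to 34 in replicate 1 and from 19 to 34 in replicate 2. A run in cluster E, from chr19:52615949 to chr19:52619489 in replicate 1 and from chr19:52616635 to chr19:52619317 in replicate 2, had 4 peaks in each list, with fold enrichments from 4.28 to 5.77 and from 3.41 to 5.11. All 8 peaks of that run sat on the lowest background of their list, and none was in an IDR region.

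**Figure D2:**
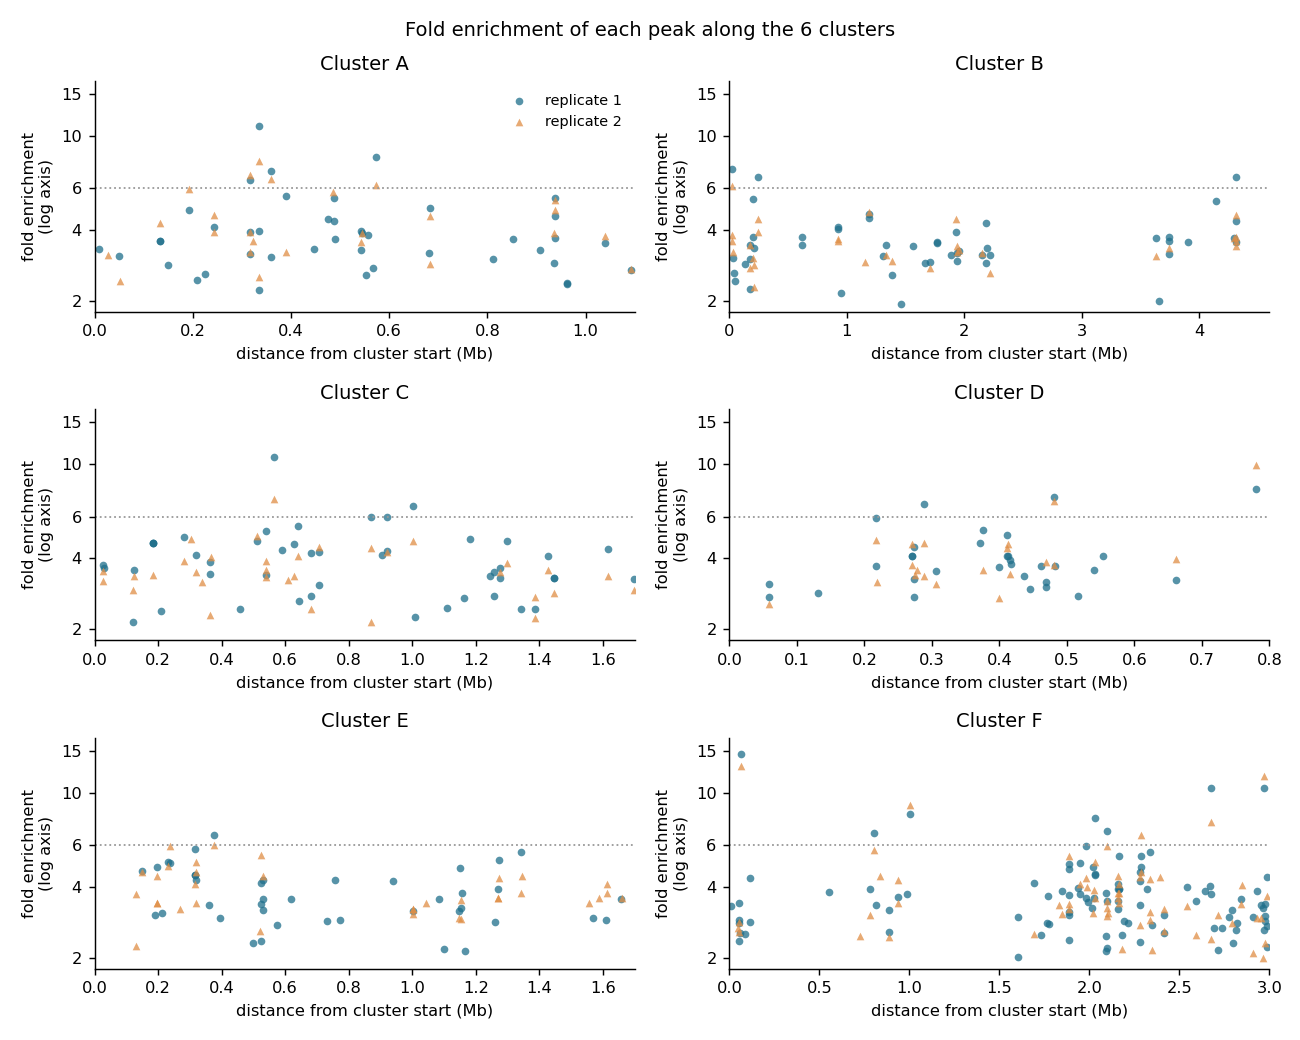
Fold enrichment over input (y axis, log scale) of each peak against its distance from the start of its cluster in Mb (x axis), in 1 panel for each of clusters A to F. Circles are replicate 1, triangles replicate 2, and the dotted line marks a fold enrichment of 6; peaks are spread along A, C, D and E, while B and F have long stretches without peaks, of 1414 kb and 595 kb.

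The height of the peaks was then compared. Fold enrichment is the authors' ratio of ChIP fragments at the summit to an input background, each with 1 added. It had a median of 3.54 in the clusters (quartiles 2.96 and 4.28) and 3.03 in the rest of chromosome 19 (quartiles 2.55 and 3.74) in replicate 1. In replicate 2 the median was 3.57 in the clusters (quartiles 3.09 and 4.39) and 3.09 in the rest (quartiles 2.57 and 4.17). By cluster the medians ran from 3.43 in B to 3.76 in C in replicate 1 and from 3.38 in F to 3.92 in A in replicate 2, so the order of the clusters was not the same in the 2 libraries.

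The comparison of tall peaks depended on where the line was drawn. Fold enrichment at or above 4 was found for 100 of 311 cluster peaks (32.2%), against 108 of 485 (22.3%) in the rest, in replicate 1 (odds ratio 1.65, adjusted p = 0.00441 by Fisher's exact test), with 24.1% over the whole list. In replicate 2 the shares were 65 of 206 (31.6%) and 80 of 301 (26.6%), a difference that did not pass the threshold (odds ratio 1.27, adjusted exact p = 0.324), with 25.1% over the whole list. Peaks with fold enrichment at or above 6 made up 20 of 311 cluster peaks (6.43%), against 54 of 485 (11.1%) in the rest, in replicate 1, with 7.46% over the whole list. In replicate 2 they made up 14 of 206 cluster peaks (6.80%), against 37 of 301 (12.3%) in the rest, with 7.08% over the whole list. These differences missed the threshold by Fisher's exact test. Replicate 1 gave an odds ratio of 0.549 (interval 0.304 to 0.955), where the adjusted exact p was 0.0574. Replicate 2 gave one of 0.521 (interval 0.253 to 1.02), where the adjusted exact p was 0.0706. The differences passed in both lists without cluster A (adjusted exact p = 0.0326 and 0.0296), in replicate 1 without cluster D (adjusted exact p = 0.0354), and in both when the edges of the clusters were moved by 0.1 Mb either way. By cluster, peaks at or above 6 numbered 4, 3, 2, 3, 1 and 7 in A to F in replicate 1 and 4, 1, 1, 2, 1 and 5 in replicate 2. Peaks at or above 10 were rarer in the clusters than in the rest in both lists. In replicate 1 they were 5 of 311 peaks (1.61%) against 24 of 485 (4.95%), with 2.53% over the whole list. In replicate 2 they were 2 of 206 (0.971%) against 17 of 301 (5.65%), with 1.99% over the whole list. The odds ratios were 0.314 and 0.164 (adjusted p = 0.0322 and 0.0126 by Fisher's exact test). At 6 and at 10 the rest of chromosome 19 lay further from the whole lists than the clusters did, while at 4 the clusters lay further. Counted per Mb instead, the difference in peaks at or above 6 did not pass the threshold (ratios of densities 1.33 and 1.36, adjusted exact p = 0.313 each), at 1.55 per Mb (interval 0.947 to 2.39) against 1.17 (interval 0.878 to 1.52) in replicate 1 and 1.09 (interval 0.593 to 1.82) against 0.800 (interval 0.564 to 1.10) in replicate 2.

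The cluster peaks also differed in what lay behind each fold value. Both the number of ChIP fragments at the summit and the input background, recovered from fold enrichment and −log10 p, had lower medians in the clusters, a difference given without a test. In replicate 1 the median was 28 fragments over a background of 6.57 in the clusters, and 39 fragments over 13.1 in the rest of the chromosome. In replicate 2 it was 26 over 5.73 in the clusters and 40 over 13.2 in the rest. Over the whole lists the median was 34 fragments in replicate 1 and 30 in replicate 2, between the clusters and the rest. Both lists were called against backgrounds with a smallest value, 4.37 fragments in replicate 1 and 4.87 in replicate 2, common to many peaks rather than particular to each. At that smallest value lay 73 of 311 cluster peaks (23.5%) and 11 of 485 peaks in the rest (2.27%) in replicate 1, against 16.3% of the whole list. In replicate 2 the counts were 67 of 206 (32.5%) and 7 of 301 (2.33%), against 27.5% of the whole list. The rest of chromosome 19 therefore lies further from the whole lists in this measure than the clusters do.

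The clusters differed in background as well. The median background was lowest in D in replicate 1, at 4.60 fragments, and in E in replicate 2, at 4.87, where 24 of the 34 replicate 2 peaks of E (70.6%) were at the smallest value. It was highest in F in replicate 1, at 9.86 fragments, and in C in replicate 2, at 7.94. The stretches between clusters had medians from 11.8 to 14 in replicate 1 and from 12.4 to 14.5 in replicate 2, above every cluster. A lower background gives a higher fold for the same number of fragments, and the part of background in the density and fold differences was not tested. The number of copies of each region in 22Rv1 was not analysed here.

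**Figure D3:**
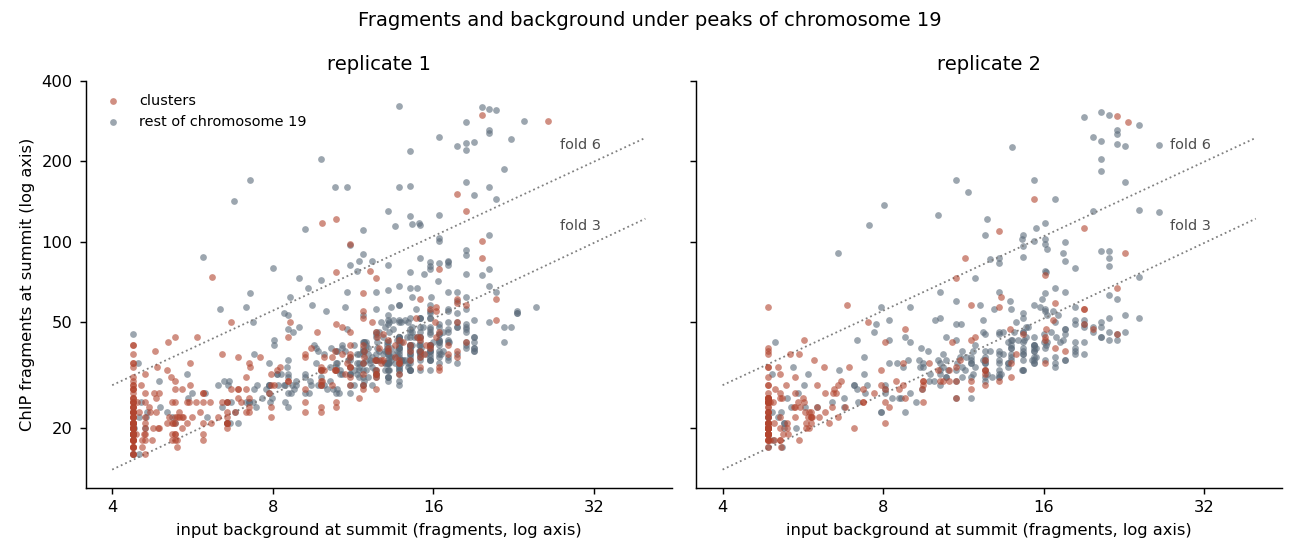
ChIP fragments at the summit (y axis, log scale) against the input background at the summit in fragments (x axis, log scale) for each peak of chromosome 19, in replicate 1 and replicate 2. Red points are cluster peaks and grey points the rest of chromosome 19, and dotted lines mark fold enrichments of 3 and 6; cluster peaks crowd at the left, with median backgrounds of 6.57 and 5.73 fragments against 13.1 and 13.2.

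The tallest members were followed in both replicates. They are the 10 peak pairs of highest mean fold enrichment in the clusters, the highest pair of each cluster, and the IDR region of highest signal in each cluster. The highest pair lay in cluster F from chr19:56164992 to chr19:56167955, 65.0 kb inside its start. Its fold enrichment was 14.5 in replicate 1 and 13 in replicate 2 (13.7 ± 1.06, SD, n = 2), with 299 and 297 fragments over backgrounds of 19.7 and 22.0, and its summits lay 2 bp apart. It ranked 106 and 104 among all peaks of the 2 lists and overlapped an IDR region that ranked 48 by signal. The next pair lay at the other end of cluster F, from chr19:59067391 to chr19:59071876, 28.1 kb before the cluster's end. Its fold enrichment was 10.4 in replicate 1 and 11.7 in replicate 2 (11.1 ± 0.929, SD, n = 2), with 283 and 281 fragments. The IDR region under it, from chr19:59068948 to chr19:59071258, had the highest signal of the clusters (1208) and ranked 10 in the list. These were the only pairs of the clusters with a mean fold enrichment of 10 or more, out of 131 pairs, while the rest of chromosome 19 had 21 such pairs out of 231. The share over all pairs of the lists is not given here. Among single peaks, 2.53% of the whole replicate 1 list and 1.99% of the whole replicate 2 list had a fold enrichment of 10 or more.

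In cluster A the highest pair, from chr19:12034181 to chr19:12035062, had a fold enrichment of 10.9 in replicate 1 and 7.83 in replicate 2 (9.38 ± 2.19, SD, n = 2), with 118 and 110 fragments. The backgrounds under its summits were 9.89 and 13.2, so the fragment numbers of the replicates lay closer together than the fold values. It overlapped the IDR region of highest signal in A, from chr19:12034384 to chr19:12035800, which had a signal of 511 and ranked 196. Cluster A had 2 further pairs among the 10 highest, at chr19:12273568 to chr19:12274339 (8.13 in replicate 1 and 6.18 in replicate 2) and at chr19:12059613 to chr19:12061694 (7.06 and 6.58).

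In cluster C the highest pair, from chr19:37263080 to chr19:37264169, had a fold enrichment of 10.7 in replicate 1 and 7.10 in replicate 2 (8.89 ± 2.54, SD, n = 2). Its fragments numbered 122 and 87, the widest difference between replicates among the 10 highest pairs in both measures. The IDR region of highest signal in C was a different site, from chr19:36980033 to chr19:36981203. Its signal was 344, and its fold enrichment was only 4.92 in replicate 1 and 3.88 in replicate 2, with 101 and 91 fragments over backgrounds of 19.7 and 22.7. In cluster E the choices also differed. The highest pair, from chr19:52674897 to chr19:52675577, had a fold enrichment of 6.64 in replicate 1 and 6.01 in replicate 2, with 50 fragments in each, yet its IDR region ranked 4120 of 4297. The IDR region of highest signal in E, from chr19:52531190 to chr19:52532444, ranked 1251 and had a fold enrichment of 5.07 in replicate 1 and 4.91 in replicate 2.

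Cluster D had its highest pair 18 kb before its end, from chr19:44980498 to chr19:44981995, with a fold enrichment of 7.82 in replicate 1 and 9.88 in replicate 2 (8.85 ± 1.46, SD, n = 2). It rested on 41 and 57 fragments over the smallest background of each list, and its IDR region, the highest of D, ranked 802. In cluster B the highest pair, from chr19:19820154 to chr19:19823788, had a fold enrichment of 7.19 in replicate 1 and 6.15 in replicate 2 (6.67 ± 0.737, SD, n = 2), with 44 and 38 fragments, and lay 20.2 kb inside the start of the cluster. Its IDR region, the highest of B, ranked 1103. The highest pairs of B, D and F thus all lay within 0.1 Mb of an edge of their interval.

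The remaining 2 of the 10 highest pairs were in cluster F. The pair from chr19:57105688 to chr19:57107234 had a fold enrichment of 8.11 in replicate 1 and 8.86 in replicate 2, with 151 and 144 fragments. The pair from chr19:58772574 to chr19:58774968 had 10.5 in replicate 1 and 7.51 in replicate 2 (9.0 ± 2.1, SD, n = 2), with 74 and 58 fragments over backgrounds of 6.15 and 6.85. It was the only one of the 10 that overlapped no IDR region, although its summits lay 15 bp apart.

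Whether the 2 libraries marked the same places in the clusters was asked next. In replicate 1, 143 of 311 cluster peaks (46.0%, exact Clopper-Pearson 95% interval 40.3% to 51.7%) overlapped a replicate 2 peak, against 234 of 485 (48.2%, interval 43.7% to 52.8%) in the rest of the chromosome and 51.1% over the whole list. This difference did not pass the threshold (odds ratio 0.913, interval 0.679 to 1.23, adjusted p = 0.654 by Fisher's exact test). In replicate 2, 150 of 206 cluster peaks (72.8%, interval 66.2% to 78.8%) overlapped a replicate 1 peak, against 258 of 301 (85.7%, interval 81.2% to 89.5%) in the rest and 64.5% over the whole list. There the odds ratio was 0.447 (interval 0.279 to 0.714, adjusted exact p = 0.00138). It did not pass among peaks with −log10 q of at least 5 (87.0% in the clusters and 93.3% in the rest, adjusted exact p = 0.120). Whether the difference differed between the replicates was not tested. By cluster the replicate 1 share ran from 32.7% in B and 36.6% in E to 59.6% in C, and the replicate 2 share from 58.1% in B and 58.8% in E to 90.0% in D, so B and E were lowest in both.

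Peaks of middle height were shared less often in the clusters in replicate 1. For fold enrichments from 4 to 6, 54 of 80 cluster peaks (67.5%) were shared in replicate 1, against 51 of 54 (94.4%) in the rest of the chromosome (odds ratio 0.124, adjusted exact p = 0.000661). In replicate 2, 43 of 51 (84.3%) were shared in the clusters and 42 of 43 (97.7%) in the rest (odds ratio 0.130, adjusted exact p = 0.0631). Over the whole lists, 82.9% of peaks in this range were shared in replicate 1 and 73.9% in replicate 2, so the cluster share lay below the whole list in replicate 1 and above it in replicate 2. The fragments behind these folds differed, with medians of 27 in the clusters and 56.5 in the rest in replicate 1, and of 27 and 56 in replicate 2. At fold 6 and above, sharing was complete, with all 20 and 14 peaks in the clusters and all 54 and 37 in the rest. From 25 to below 40 fragments the order was the other way in replicate 1, with 60 of 132 cluster peaks (45.5%) shared and 59 of 215 (27.4%) in the rest, with 43.0% over the whole list, while in replicate 2 the shares were 76.4% and 73.6%, with 71.9% over the whole list. Below 25 fragments, 41 of 114 cluster peaks (36.0%) and 14 of 29 in the rest (48.3%) were shared in replicate 1, with 41.2% over the whole list. In replicate 2 the counts were 46 of 81 (56.8%) and 15 of 22 (68.2%), with 30.0% over the whole list. Of peaks with more fragments, 42 of 65 cluster peaks (64.6%) with 40 or more fragments were shared in replicate 1, against 161 of 241 (66.8%) in the rest, and 36 of 36 in replicate 2, against 154 of 158 (97.5%) in the rest, with 66.3% and 96.2% over the whole lists. These shares by fragment number were not tested.

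The summits of shared peaks lay further apart in the clusters. When a shared peak needed its summits within 100 bp, 18.6% of replicate 1 cluster peaks were shared, against 32.8% in the rest of the chromosome and 29.7% over the whole list (odds ratio 0.470, adjusted exact p = 7.1e-05). Over pairs in which each peak was used only once, summits lay a median of 151 bp apart in the 131 pairs of the clusters and 52 bp apart in the 231 pairs of the rest. Fold enrichment had a rank correlation (Spearman's rho) of 0.787 over the 131 cluster pairs and 0.817 over the 231 other pairs. It is given as a description, since pairs come from the same 2 libraries and may share an input background. The labels do not say which input each list was called against. The median log2 ratio of fold enrichment, replicate 2 over replicate 1, was -0.16 in the clusters (quartiles -0.39 and 0.05) and -0.23 in the rest (quartiles -0.41 and -0.04). Replicate 1 was the higher in 90 of 131 cluster pairs and in 186 of 231 other pairs. The same ratio of fragments was nearer to 0, at -0.07 in the clusters and -0.11 in the rest.

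**Figure D4:**
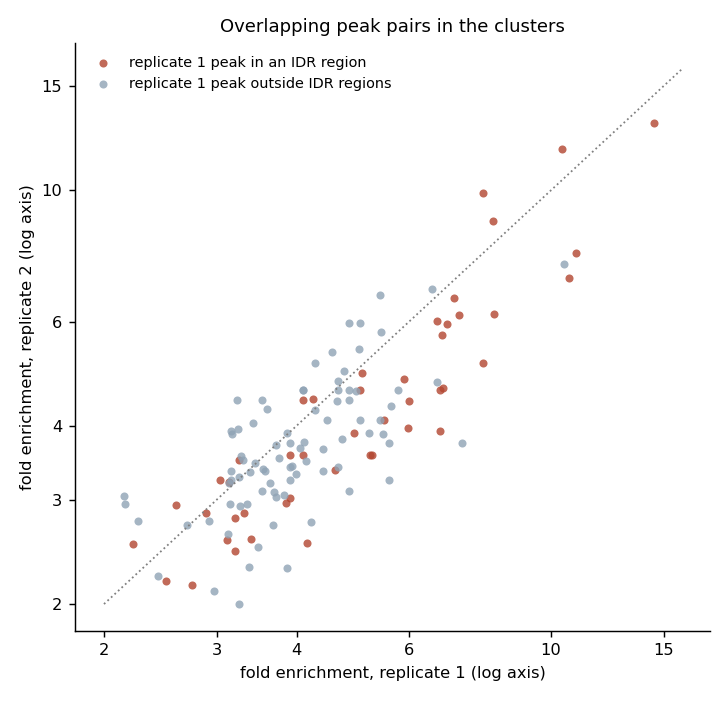
Fold enrichment in replicate 2 (y axis) against replicate 1 (x axis), both on log scales, for the 131 overlapping peak pairs of the clusters; the dotted line marks equal values. Red pairs have their replicate 1 peak in an IDR region and grey pairs do not; 90 pairs lie on the replicate 1 side of the line, and the grey point at 10.5 and 7.51 is the pair from cluster F outside the IDR list.

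The last question was which cluster peaks the IDR list keeps. In replicate 1, 82 of 311 cluster peaks (26.4%, interval 21.6% to 31.6%) fell in an IDR region, against 178 of 485 (36.7%, interval 32.4% to 41.2%) in the rest of the chromosome and 32.8% over the whole list (odds ratio 0.618, interval 0.445 to 0.853, adjusted exact p = 0.00588). In replicate 2, 62 of 206 cluster peaks (30.1%, interval 23.9% to 36.9%) did, against 144 of 301 (47.8%, interval 42.1% to 53.6%) in the rest and 31.4% over the whole list (odds ratio 0.470, interval 0.317 to 0.693, adjusted exact p = 0.000508). The clusters lay further from the whole list than the rest did in replicate 1, and the rest lay further from it in replicate 2. Without cluster B the replicate 1 difference missed the threshold (28.6% against 36.7%, adjusted exact p = 0.0574). These intervals and tests treat each peak as 1 observation, although 1 IDR region can cover 2 or more neighbouring peaks.

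In classes of fragment number, chosen after the data were seen, the shares lay closer together. With 40 or more fragments, 34 of 65 cluster peaks (52.3%) were in an IDR region in replicate 1, against 126 of 241 (52.3%) in the rest of the chromosome, and 24 of 36 (66.7%) in replicate 2, against 105 of 158 (66.5%) in the rest. With 25 to below 40 fragments the shares were 25% in the clusters and 21.4% in the rest in replicate 1, and 27.0% and 28.1% in replicate 2. Below 25 fragments they were 15 of 114 (13.2%) in the clusters and 6 of 29 (20.7%) in the rest in replicate 1. In replicate 2 they were 14 of 81 (17.3%) and 5 of 22 (22.7%). The rest had few peaks in this class, with intervals of 7.99% to 39.7% in replicate 1 and 7.82% to 45.4% in replicate 2, so a difference there could hardly be detected. Over the whole lists the shares in the 3 classes, from many fragments to few, were 54.6%, 26.4% and 11.4% in replicate 1 and 63.7%, 26.8% and 8.37% in replicate 2. None of the 6 differences between clusters and rest passed the threshold (adjusted exact p from 0.528 to 1.0). Peaks with fewer than 25 fragments made up 36.7% of cluster peaks and 5.98% of those in the rest in replicate 1, and 39.3% and 7.31% in replicate 2. Over the whole lists such peaks numbered 3802 of 14431 in replicate 1 and 4170 of 11990 in replicate 2. For fold enrichments from 3 to 6, the share in an IDR region was lower in the clusters than in the rest in both replicates. It was 19.3% against 34.4% in replicate 1 (adjusted exact p = 0.00222) and 23.6% against 45.2% in replicate 2 (adjusted exact p = 0.00138). Over the whole lists that share was 25.3% in replicate 1 and 22.2% in replicate 2. The cluster share thus lay below the whole list in replicate 1 and above it in replicate 2.

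**Figure D5:**
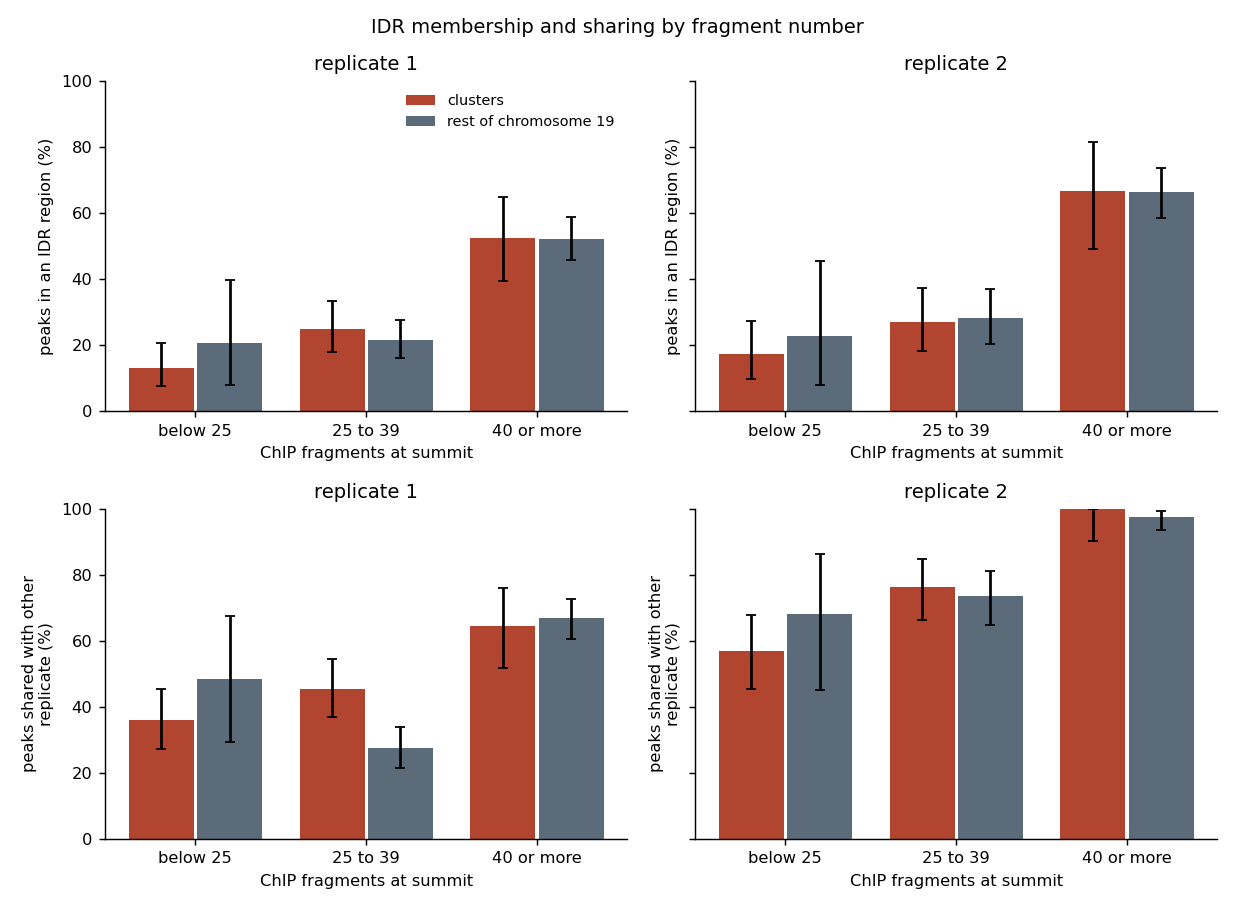
Percent of peaks that lie in an IDR region (upper panels) or overlap a peak of the other replicate (lower panels), by number of ChIP fragments at the summit (x axis), in replicate 1 and replicate 2. Red bars are clusters, grey bars the rest of chromosome 19, and black bars exact Clopper-Pearson 95% intervals; at 40 or more fragments the IDR shares are 52.3% against 52.3% and 66.7% against 66.5%.

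The 64 IDR regions of the clusters had lower signal and were wider than those of the rest. Their median signal, on the deposited scale that the header does not name, was 185 (quartiles 160 and 235), against 211 (quartiles 179 and 290) in the 169 regions of the rest. Their median width was 2098 bp (quartiles 1560 and 2549 bp), against 1628 bp (quartiles 1323 and 2204 bp) in the rest. The 3 highest signals among the 64 were 1208 and 901 in cluster F and 511 in cluster A, all under pairs described above. Of the 64, 21 (32.8%) covered 2 or more replicate 1 peaks, against 31 of 169 (18.3%) in the rest, and 14 (21.9%) covered 2 or more replicate 2 peaks, against 20 of 169 (11.8%) in the rest. These differences in signal, width and number of peaks were not tested, and their values over the whole IDR list are not given here. In the clusters 44 of 64 IDR regions (68.8%, interval 55.9% to 79.8%) overlapped a peak in both replicates, against 120 of 169 (71.0%, interval 63.5% to 77.7%) in the rest and 63.3% over the whole list (odds ratio 0.899, interval 0.463 to 1.78, adjusted exact p = 0.750). Of the others, 13 had a peak from replicate 1 alone and 2 from replicate 2 alone. No replicate peak was found under 5 (7.81%, interval 2.59% to 17.3%), against 24 of 169 (14.2%, interval 9.32% to 20.4%) in the rest of chromosome 19 and 18.3% over the whole list.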

How the data were processed

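ChIP-seq peak lists of 2 ONECUT2 libraries of 22Rv1, called against input, were analysed. Tools listed by the submitters' processing notes, with no roles, were MACS2 2.1.1, BWA 0.7.13-r1126 and Picard, and the build was hg19. Per the file headers, the replicate peaks came from MACS2 and the other list is an optimal IDR set. In the replicate lists the authors deposited a fold enrichment (ratio over input), a −log10 p and a −log10 q per peak; the deposited score was not used. The IDR list has a deposited signal value on an unnamed scale and no p or q. Total depth and peak calling settings are not given in the sources used here. Precision is limited by the number of fragments at a summit.

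The MACS2 formulas gave fragments and background back from fold and −log10 p, and fragments came out whole within 0.001 on the −log10 p scale for 14431 of 14431 and 11990 of 11990 peaks, in a step tested on simulated data. Peaks were assigned by their start, counted from 1. Overlap meant at least 1 bp. Pairs joined each shared replicate 1 peak with the overlapping replicate 2 peak of nearest summit. Where several replicate 1 peaks had the same replicate 2 peak, only the pair with the nearest summits was kept. Densities were compared with an exact test of 2 Poisson rates, shares with Fisher's exact test for counts, all two-sided, with Benjamini-Hochberg adjustment over 3 lists, 18 cluster comparisons and 7 shares, at a threshold of 0.05 (SciPy 1.17.1, Python 3.11.15). Each alternative share was adjusted with the other main shares. The intervals and tests of fold, sharing and IDR shares, like those of density, treat each peak as 1 observation. They cover counting error alone, although neighbouring peaks may share their origin. Regions were named by rule as the 10 pairs of highest mean fold, and the highest pair and IDR region of each cluster. The bounds of the clusters are fixed genome positions that use no measured value, but the clusters as a subject, the thresholds and the tests were chosen with earlier results of these data known.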

Additional observations from a re-analysis of the deposited data

How the results depend on the processing

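No paired analysis was possible because input enters every list only through its peak calls and peaks, not samples, were counted. Of 202 values under alternatives, 160 concern the comparisons themselves, and 112 of these kept their direction and side of the threshold or moved little. Fragments behind a peak limit precision, and copy number and sequence were not analysed here. Leaving out each cluster in the shared and IDR shares, leaving out the stretch between B and C, and the classes of fragments and of fold from 3 to 6 in the IDR share were chosen after seeing the data. The cause of a change was not tested.

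Among peaks of fold 6 or more the density ratio was 1.33 in replicate 1 and 1.36 in replicate 2, and 0 clusters passed the threshold in either, although A, D and F had ratios from 2.00 to 4.54. The IDR ratio of 1.36 missed the threshold with regions joined within 1 kb (1.33), narrowed edges (1.22), the rest without its longest empty stretch (1.24) or without the stretch between B and C (1.08), and without cluster A (1.34), C (1.29), D (1.29) or F (1.05). Ratios were 3.01, 3.24 and 1.88 without B and 5.15, 4.03 and 3.48 against the other autosomes, in replicate 1, replicate 2 and the IDR list. Single clusters fell below the rest for B at −log10 q of at least 5 (0.680 and 0.678), for B at fold 6 or more (0.558 and 0.272), for E (0.504 and 0.735) and, in replicate 2, C (0.735) at that fold, and for B with peaks joined (0.914, replicate 2).

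The share at fold 6 or more passed with widened edges (6.17% and 6.48%), narrowed edges (5.84% and 5.62%), without A (5.97% and 5.52%), without D (6.09%, replicate 1) and at fold 10 (1.61% and 0.971%), and turned round at fold 4 (32.2% and 31.6%). The replicate 1 shared share turned round without B (48.5%) and passed with 50% reciprocal overlap (27.0%), summits within 100 bp (18.6%) and at fold 4 to 6 (67.5%). The replicate 2 share missed it at −log10 q of at least 5 (87.0%), below fold 3 (70.5%) and at fold 4 to 6 (84.3%). The IDR share missed it without B (28.6%, replicate 1) and in the fragment classes (13.2%, 25% and 52.3% in replicate 1, 17.3%, 27.0% and 66.7% in replicate 2), of which 25%, 52.3% and 66.7% were above the rest. The ratio of median folds was 1.18 and 1.13 at −log10 q of at least 5 and 1.10 among shared peaks of replicate 1. With 1 replicate in place of the other, the shared share ran from 46.0% to 72.8%, and the ratio of medians from 1.15 to 1.17 for fold, 0.650 to 0.718 for fragments and 0.434 to 0.500 for background.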
